A study of Mus musculus with 14 samples.

Results

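Late vitamin C added to TSA was compared with TSA alone in 6 of the 14 single SCNT embryos of the study, 3 embryos treated with TSA(0-8h)+VC(8-15h) and 3 treated with TSA(0-8h). The embryos were taken by their sample labels alone, and no measured value entered the choice. All were two-cell mouse embryos made by somatic cell nuclear transfer (SCNT), in which the nucleus of a cumulus cell, the somatic cell that surrounds the ovulated egg, is placed into an egg whose own chromosomes were removed. Both groups came from B6D2F1 donors and were cultured in medium with deionized BSA, and both received 50 nM TSA for the first 8 h from activation. The TSA+late VC embryos then received 10 µg/ml VC from 8 to 15 h, and embryos of both groups were collected at 28 h, counted from nuclear transfer in the labels and from activation in the study's methods, each giving 1 library. The remaining 8 embryos were 3 untreated controls, 2 given only VC(8-15h), 1 given only VC(0-8h), and 2 given TSA(0-8h)+VC(0-8h). They are used below only to show where the levels of named genes lie outside the comparison.

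TSA (trichostatin A) inhibits class I and II histone deacetylases, so acetyl groups stay on histones and chromatin remains more open to transcription. VC (ascorbate) is an antioxidant and also keeps the iron of dioxygenases reduced, among them the Jumonji histone demethylases that remove methyl groups from H3K9 and the TET enzymes that oxidize methylcytosine in DNA. The mouse embryo starts its main wave of transcription at the two-cell stage while the maternal mRNA stored in the oocyte is cleared, and a transferred somatic nucleus has to start the same programme from a differentiated chromatin state. The comparison asks which transcripts differ at the two-cell stage when VC follows TSA.

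The identity of the embryos was checked first. Oocyte-specific genes gave 15 to 23 of 36 entries at 1 RPKM or more per embryo, and genes of two-cell activation gave 16 to 28 of 34. Cumulus cell markers gave 1 or 2 of 30 entries, and the remaining markers were below 1 RPKM in all 6 embryos. Those detected were Nr5a2, Sdc4, a membrane proteoglycan, at 26.5 RPKM in TSA+late VC replicate 3, and Vcan, a matrix proteoglycan, at 68.1 RPKM in TSA replicate 2. The 1 cumulus marker that passed the filter on low values, Nr5a2, a nuclear receptor that embryos also use, had levels of 3.55, 6.05 and 92.9 RPKM with late VC and 3.28, 1.09 and 41.3 RPKM without. The reads counted ranged from 4343837 to 12277567 in the TSA+late VC embryos and from 3021540 to 11753807 in the TSA embryos. Replicates 1, 2 and 3 of both groups were sequenced in pools 1, 2 and 3, as the library identifiers give them. Embryos of different groups in the same pool had a mean Spearman correlation of 0.728 over all entries, compared with 0.654 among the TSA+late VC embryos, 0.607 among the TSA embryos and 0.629 between groups in different pools. Over the 4896 transcripts tested below the same means were 0.327, 0.355, 0.230 and 0.278. Values within each pool are therefore given beside several results.

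More transcripts were detected after late VC. At 1 RPKM or more, the TSA+late VC embryos had 5489, 5539 and 5720 RefSeq transcripts and the TSA embryos 4198, 3556 and 4249. RPKM is a read count scaled to the length of the transcript and to the reads counted in the library. The groups did not overlap, and their means were 5583 ± 122 and 4001 ± 386 (SD, n = 3 each), a difference of 1582 transcripts. An exact two-sided permutation test gave p = 0.1, which is the smallest value that 3 embryos against 3 can give. The difference was 1291, 1983 and 1471 in pools 1, 2 and 3. Thinning every library to the depth of the shallowest left a difference of 1570. At 5 RPKM or more the difference was 1484, and at 0.1 RPKM or more it was 915, with no overlap between the groups at either level. Entries with any read at all differed by 708 on average, with overlapping groups and an exact p of 0.3. The gap between the groups was thus smaller among traces. Some low values stood beside a high value in the same pool. For example, Xpa had 178 RPKM in TSA+late VC replicate 1, 0.69 RPKM in TSA replicate 1 and 0 elsewhere. A 175-base entry of Timeless had 3409 RPKM in TSA replicate 2, 2.21 RPKM in TSA+late VC replicate 2 and 0 elsewhere. Whether reads passed between libraries of a pool was not tested, so traces may not be an embryo's own transcripts. Since RPKM is relative to all reads of a library, fewer transcribing genes and less RNA per gene cannot be told apart here. Each library was amplified from part of the RNA of 1 embryo, and loss of transcripts in that step was not tested.

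Outside the comparison, the control embryos had 5197, 3819 and 5439 transcripts at this level and the VC(8-15h) embryos 6342 and 3322. The TSA+VC(0-8h) embryos had 4864 and 6728, and the VC(0-8h) embryo had 6244. The TSA+late VC embryos lay inside the range of these 8 embryos and had a narrow spread, and the TSA embryos lay in its lower part.

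**Figure D1:**
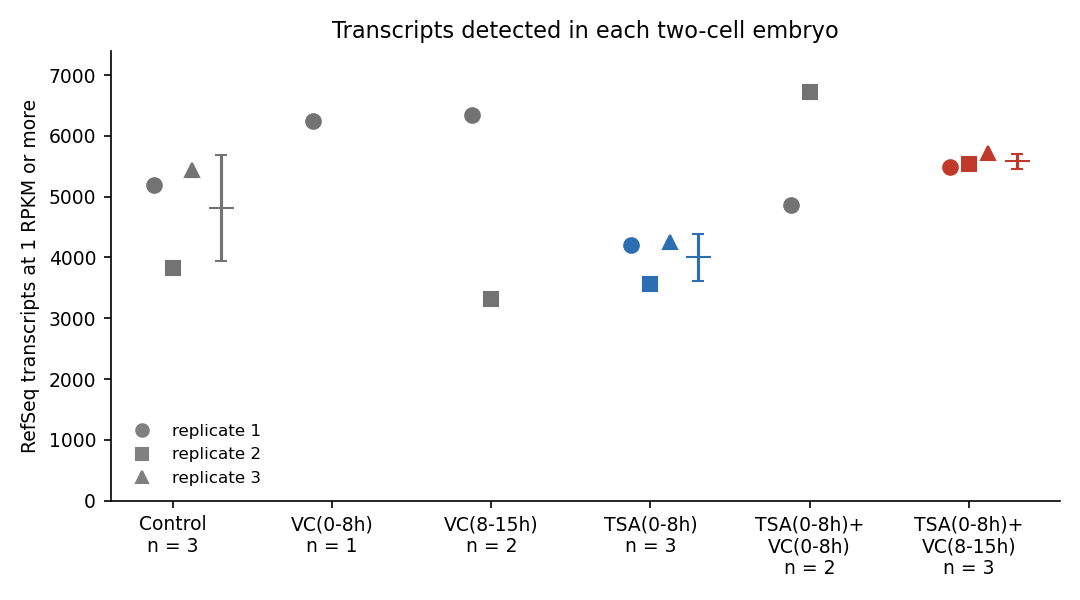
Number of RefSeq transcripts at 1 RPKM or more (vertical axis) in each of the 14 embryos by treatment (horizontal axis), with the marker shape giving the replicate and the bars the mean ± SD of groups with 3 embryos. The 3 TSA+late VC embryos (red) lie between 5489 and 5720 and the 3 TSA embryos (blue) between 3556 and 4249.

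Presence and absence were also compared entry by entry. Of 25650 entries, 1336 reached 1 RPKM in all 6 embryos and 15792 in none. A further 203 entries reached it in all 3 TSA+late VC embryos and in no TSA embryo, and 16 did the reverse. Among the 16 were Pebp1, an inhibitor of Raf signalling, Pgrmc1, a haem-binding membrane protein, Sfmbt2, an imprinted Polycomb gene, and Ube2g2, a ubiquitin-conjugating enzyme, all chosen here after their values were seen.

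For the test of levels, 4896 transcripts with 1 RPKM or more in at least 3 of the 6 embryos were kept, and limma was fitted to log2(RPKM+1). The median difference over all of them was 0.87 on the log2 scale in favour of late VC, and 68.4% had a difference above 0. Differences below are to be read against this shift of the tested transcripts. Without the filter on low values the median was 0.07 over 14678 transcripts. Scaling the embryos by median ratios moved it to -0.11, and quantile normalization to 0.06. The median SD within groups was 2.16 on the same scale, so most transcripts varied more than 4-fold between embryos treated alike.

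Of the 4896 transcripts, 1 rose (0.0204% of those tested) and 2 fell (0.0408%) at a limma adjusted p under 0.05, and with each embryo left out in turn 1 to 6 rose and 0 to 7 fell. With the replicate number, which is also the pool, as a block in the fit, 8 rose and 6 fell. At an unadjusted p under 0.01, 41 were higher (0.837%) and 18 lower (0.368%), and at an unadjusted p under 0.05, 347 were higher (7.09%) and 60 lower (1.23%). The balance of these counts depended on the scaling, with 122 higher and 224 lower after median-ratio scaling and 130 higher and 114 lower after quantile normalization. In 595 transcripts (12.2%) every TSA+late VC embryo lay above every TSA embryo, and in 111 (2.27%) every one lay below. Such transcripts are called separated below and are described by their values.

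The direction depended on the level. Transcripts with a mean under 4 on the log2 scale had median differences of 0.96 (mean level 0 to 2) and 1.17 (mean level 2 to 4). The 528 transcripts with a mean level of 6 to 8 had a median difference of 0.13, and the 74 above 8 had one of -0.23. Among these 74, 2 were separated upwards and 10 downwards, 2.7% and 13.5%. Without further scaling, the balance was thus towards late VC in weakly and moderately expressed genes and towards TSA alone in the most abundant ones. The filter admits transcripts at 1 RPKM in all 3 embryos of 1 group alone, 203 with late VC and 16 without. Ranges of level were not compared after median-ratio scaling, which moved the median of all tested transcripts to -0.11.

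**Figure D2:**
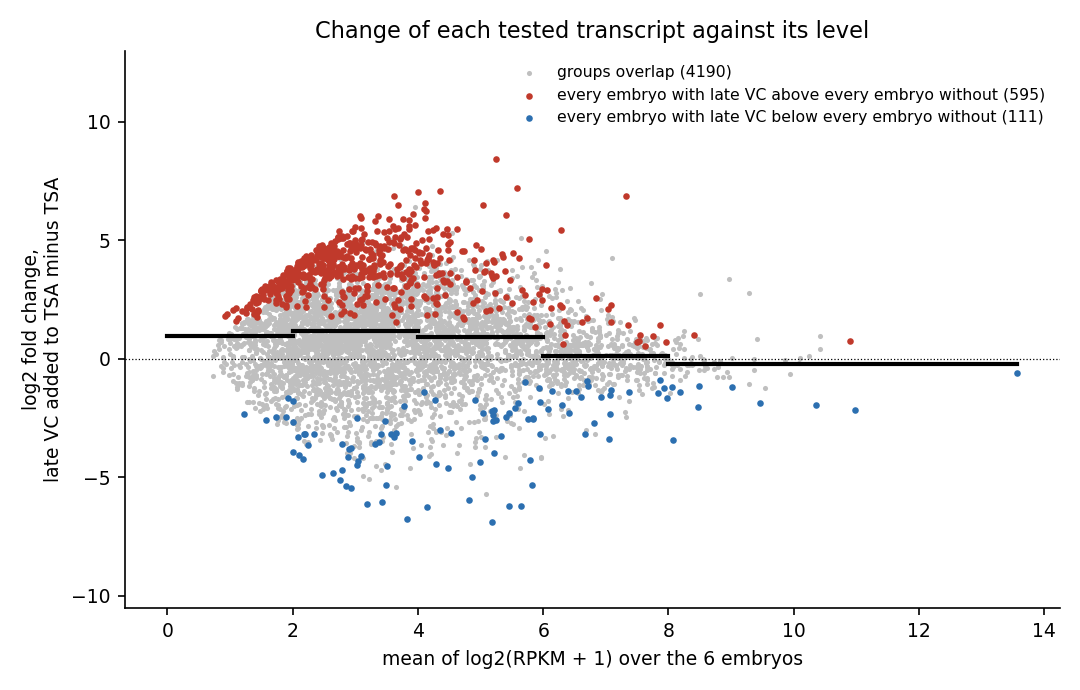
Difference of log2(RPKM+1) between TSA+late VC and TSA embryos (vertical axis) against the mean log2(RPKM+1) of the 6 embryos (horizontal axis) for 4896 transcripts, with separated transcripts in red (595 higher) and blue (111 lower) and black lines at the median of each range of levels. The medians lie near 1 below a level of 6, at 0.13 from 6 to 8 and at -0.23 above 8.

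The transcripts that fell belonged to abundant messages. Ccdc82, a coiled-coil protein of little-known function, had 8989, 11810 and 8949 RPKM with late VC and 14310, 15390 and 15410 RPKM without. All TSA embryos were above all TSA+late VC embryos, and the log2 difference was -0.61 (SE 0.10, limma adjusted p = 0.0251). This 1 entry took 6.64%, 7.14% and 7.15% of all counted reads in the TSA embryos and 4.17%, 5.48% and 4.15% in the TSA+late VC embryos. In the 8 other embryos it ranged from 7209 to 16650 RPKM, a range that covers both groups. The adjusted p was 0.197, 0.376 and 0.279 without TSA replicates 1, 2 and 3, and quantile normalization, which sets the top entry of each embryo to 1 value, removed the difference.

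Omt2a, an oocyte maturation transcript on chromosome 9 (mm9, 78159779 to 78162604), had 1226, 488 and 1485 RPKM with late VC and 6390, 4601 and 2600 RPKM without. The groups did not overlap, and the log2 difference was -2.14 (SE 0.36, limma adjusted p = 0.0251). Its neighbour Omt2b, a related oocyte transcript, had 446, 462 and 1481 RPKM with late VC and 5030, 2008 and 1662 RPKM without, again with no overlap (difference -1.93, limma adjusted p = 0.299). For Omt2a the adjusted p was 0.369, 0.260 and 0.125 without TSA replicates 1, 2 and 3, and 0.13 over both entries of the gene, where the groups remained apart. How reads shared by these related genes were counted is not given in the sources used here, so their values may not be independent. Every TSA embryo also exceeded the 8 other embryos for Omt2a (26.9 to 1885 RPKM), whereas Omt2b reached 2919 RPKM in 1 of those.

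The promoters of these neighbours are shown beside those of a pair of genes with the opposite pattern, Sprtn and Paf1 (values below). This pair was picked as an example, without a rule, from the genes named upwards. Each is the RefSeq window from 250 bases before to 50 bases after the start of the gene (build GRCm38.p6), written 5′ to 3′ on the gene's strand, with capitals marking the motifs searched on either strand. These were the GC box (GGGCGG), the TATA box as spelled TATAAA, and the CCAAT box.
Omt2a, chr9:78313999-78314298, minus strand: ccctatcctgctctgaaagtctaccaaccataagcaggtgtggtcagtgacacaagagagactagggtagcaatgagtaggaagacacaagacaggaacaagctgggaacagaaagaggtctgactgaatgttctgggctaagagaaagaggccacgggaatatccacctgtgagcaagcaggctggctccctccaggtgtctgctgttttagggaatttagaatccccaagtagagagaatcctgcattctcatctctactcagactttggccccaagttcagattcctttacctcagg
Omt2b, chr9:78327780-78328079, plus strand: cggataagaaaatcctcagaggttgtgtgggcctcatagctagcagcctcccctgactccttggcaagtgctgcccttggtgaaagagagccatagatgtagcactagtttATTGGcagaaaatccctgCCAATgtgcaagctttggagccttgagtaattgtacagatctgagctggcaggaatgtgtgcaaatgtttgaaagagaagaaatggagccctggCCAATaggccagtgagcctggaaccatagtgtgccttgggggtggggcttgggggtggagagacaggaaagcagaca
Sprtn, chr8:124897644-124897943, plus strand: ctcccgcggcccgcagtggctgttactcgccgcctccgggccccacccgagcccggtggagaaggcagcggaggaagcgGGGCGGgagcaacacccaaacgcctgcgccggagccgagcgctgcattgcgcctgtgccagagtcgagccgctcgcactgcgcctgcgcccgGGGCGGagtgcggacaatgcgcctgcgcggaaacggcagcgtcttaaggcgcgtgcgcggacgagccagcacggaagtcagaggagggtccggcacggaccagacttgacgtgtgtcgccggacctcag
Paf1, chr7:28392746-28393045, plus strand: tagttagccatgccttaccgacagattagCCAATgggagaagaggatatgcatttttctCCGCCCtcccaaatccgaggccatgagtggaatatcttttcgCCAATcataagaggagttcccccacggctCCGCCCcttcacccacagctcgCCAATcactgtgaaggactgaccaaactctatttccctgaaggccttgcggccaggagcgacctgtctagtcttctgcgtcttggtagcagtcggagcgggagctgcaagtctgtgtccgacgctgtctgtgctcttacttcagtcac

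The windows of Omt2a and Omt2b each hold 1 CpG and no GC box, that of Sprtn holds 41 CpGs and 2 GC boxes, and that of Paf1 14 CpGs, 2 GC boxes and, like that of Omt2b, 3 CCAAT boxes. The separated genes were compared as sets. A GC box was found in 70.7% of 464 matched promoters of the genes separated upwards, in 57.3% of 89 of those separated downwards, in 69.2% of 3749 of all tested genes and in 35.9% of all 27025 in the RefSeq table. A TATA box was found in 6.03%, 7.87%, 6.13% and 14.2% of the same sets, and the median CpG count was 24, 22, 24 and 7.

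Other transcripts were separated downwards without passing the adjusted threshold. Hpf1, which directs PARP1 to modify serines at DNA breaks, had 127, 43.3 and 97.8 RPKM with late VC and 812, 1104 and 777 RPKM without, a log2 difference of -3.43 (SE 0.68, limma adjusted p = 0.0775). Ptma (prothymosin alpha, a chromatin protein that binds histone H1) had 340, 233 and 652 RPKM with late VC and 1549, 1684 and 926 RPKM without. Pdcd2, needed for loading the small ribosomal subunit protein Rps2, had 0.82, 0.46 and 48.8 RPKM with late VC and 451, 363 and 322 RPKM without. For all of these the TSA embryos were closer together on the log2 scale, and the TSA+late VC embryos were lower than them and more dispersed. The medians of the 8 other embryos were 143 RPKM for Hpf1, 255 RPKM for Ptma and 15.25 RPKM for Pdcd2.

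Ctdp1, the phosphatase that recycles RNA polymerase II, had 2.44, 0.45 and 0.64 RPKM with late VC and 90.4, 154 and 255 RPKM without. Slc25a3, the mitochondrial phosphate carrier, had 86.8, 1.87 and 1.78 RPKM with late VC and 998, 426 and 108 RPKM without. Pebp1 had 0, 0.44 and 0.76 RPKM with late VC and 10.9, 862 and 317 RPKM without. The entry of Ccdc9, whose gene overlapped as a whole, had 1.71, 0.32 and 11.7 RPKM with late VC and 714, 494 and 30.3 RPKM without. Ctdp1 was low in all TSA+late VC embryos and high in all TSA embryos, and the others also varied widely within a group. Their adjusted p was 0.57. In 6 of the 12 transcripts named by this rule (Omt2a, Hpf1, Npm1, Ptma, Pdcd2 and Ctdp1) the lowest TSA embryo was above the 11 other embryos of the study, controls included. No named transcript of this direction had all TSA+late VC embryos below those 11.

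The 1 transcript that rose was an entry of Arhgap1, a GTPase-activating protein for Cdc42 that acts on actin, on chromosome 2 (mm9, 91490017 to 91512483). It had 713, 880 and 573 RPKM with late VC, from 418, 923 and 949 reads, and 0, 1.90 and 1.89 RPKM without, from 0, 2 and 3 reads. The log2 difference was 8.45 (SE 1.45, limma adjusted p = 0.0251), and the size of such a difference depends on the pseudocount. The adjusted p was 0.119, 0.240 and 0.103 without TSA+late VC replicates 1, 2 and 3. The entry spans only 135 of the 3221 exonic bases counted for the gene. Over both of its entries, Arhgap1 had 184, 47.7 and 48.2 RPKM with late VC and 6.58, 0.24 and 96.8 RPKM without, so the groups overlapped and the adjusted p was 0.665.

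This difference between an entry and its gene recurred among the separated transcripts with the smallest p. Lengths worked out from the steps between RPKM values show that exonic bases shared by several transcripts of a gene are held by 1 entry, and the remaining entries keep only the bases that are theirs alone. Of the 12 transcripts named in the upward direction, 9 belonged to genes with several entries, 7 were shorter than 400 bases, and 5 remained separated once reads and lengths were summed over the gene. In the downward direction 4 of 12 belonged to such genes, 2 were shorter than 400 bases, and 9 remained separated. Over all 595 and 111 separated transcripts, entries shorter than 400 bases made up 2.18% and 1.8%, compared with 2.8% of all tested.

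Dbf4, the activating subunit of the Cdc7 kinase that fires replication origins, is the clearest case. Its 46-base entry had 2853, 957 and 1900 RPKM with late VC and 0, 16.7 and 181 RPKM without. The gene as a whole had 364, 185 and 154 RPKM with late VC and 468, 193 and 98.0 RPKM without, so it did not separate the groups. Sp110, a nuclear body protein expressed in early embryos, had 1525, 1269 and 103 RPKM with late VC and 4.77, 2.46 and 2.04 RPKM without in its 208-base entry, and 381, 652 and 321 against 630, 377 and 166 RPKM over the gene. The short entries of Larp4, Slc25a44, Dclk2 and Nfe2l1 showed the same, with gene-level differences of 0.44, 1.84, 1.16 and 1.64 on the log2 scale compared with 6.51, 7.07, 5.45 and 6.09 for the entries. In the downward direction the short entries of Npm1 (nucleophosmin) and Rsrc2 went from -6.87 and -6.20 to -0.78 and -1.55. For these genes the values bear on 1 exonic piece and not on the level of the gene.

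**Figure D3:**
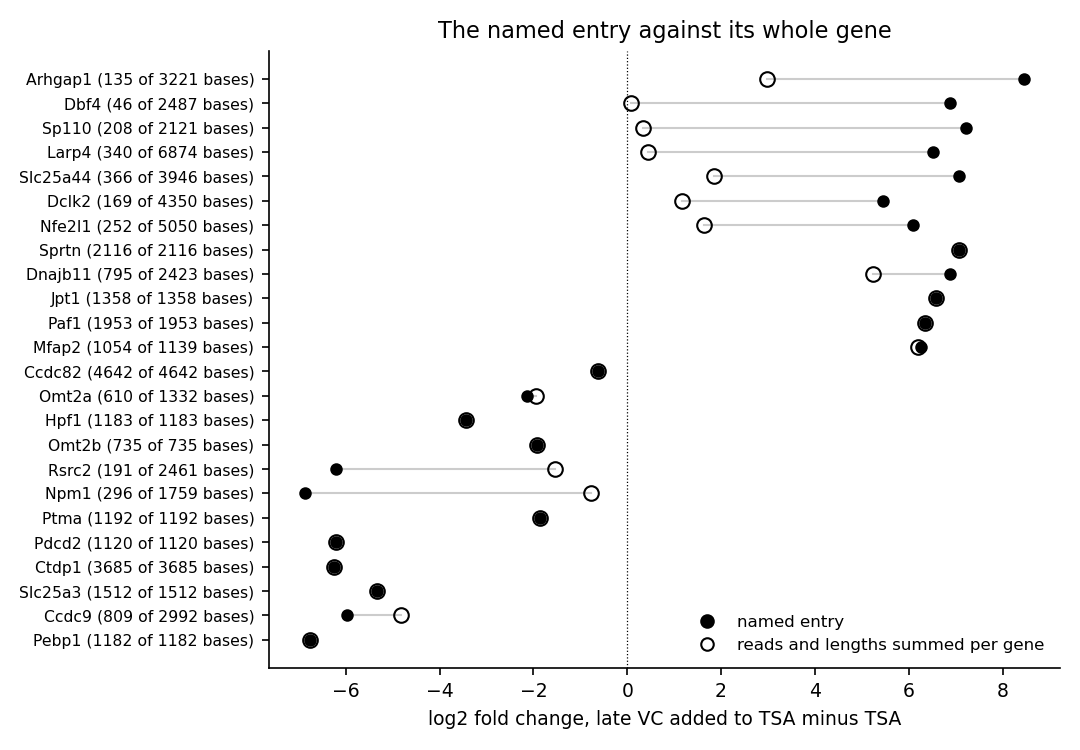
Log2 difference between TSA+late VC and TSA embryos (horizontal axis) of the 24 named transcripts, as the single entry (filled) and with reads and lengths summed over the gene (open), with the counted bases of each beside the symbol. Short entries such as that of Dbf4 (46 bases, from 6.87 to 0.07) moved towards 0, and genes with 1 entry stayed in place.

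The genes that remained separated upwards as whole genes had levels near 0 in the TSA embryos. Sprtn, the protease that removes proteins crosslinked to DNA, had 133, 193 and 244 RPKM with late VC, from 1226, 3170 and 6340 reads, and 0.16, 0.60 and 0.44 RPKM without, from 1, 10 and 11 reads (difference 7.06, SE 1.81, limma adjusted p = 0.315). Paf1, a subunit of the complex that accompanies elongating RNA polymerase II, had 222, 105 and 157 RPKM with late VC and 0.34, 2.62 and 0.44 RPKM without. Jpt1, a microtubule-associated protein, had 439, 142 and 76.7 RPKM with late VC and 1.95, 0.66 and 0.13 RPKM without. Among Sprtn, Paf1 and Jpt1 the lowest TSA+late VC value was 76.7 RPKM and the highest TSA value 2.62 RPKM.

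Dnajb11, an HSP40 co-chaperone of the endoplasmic reticulum, had 61.2, 55.3 and 55.7 RPKM with late VC and 2.19, 0.11 and 0.04 RPKM without as a whole gene. Mfap2, a microfibril protein, had 187, 197 and 95.2 RPKM with late VC and 2.51, 0.85 and 0.24 RPKM without. Control embryos did not share 1 level of these genes. Jpt1 had 240, 15.1 and 2.82 RPKM in the 3 controls and Mfap2 had 195, 0.83 and 0.14 RPKM. Only Sprtn and the Arhgap1 entry, of these 12, were also higher in every TSA+late VC embryo than in the 8 embryos outside the comparison, where Sprtn reached 99.7 RPKM.

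**Figure D4:**
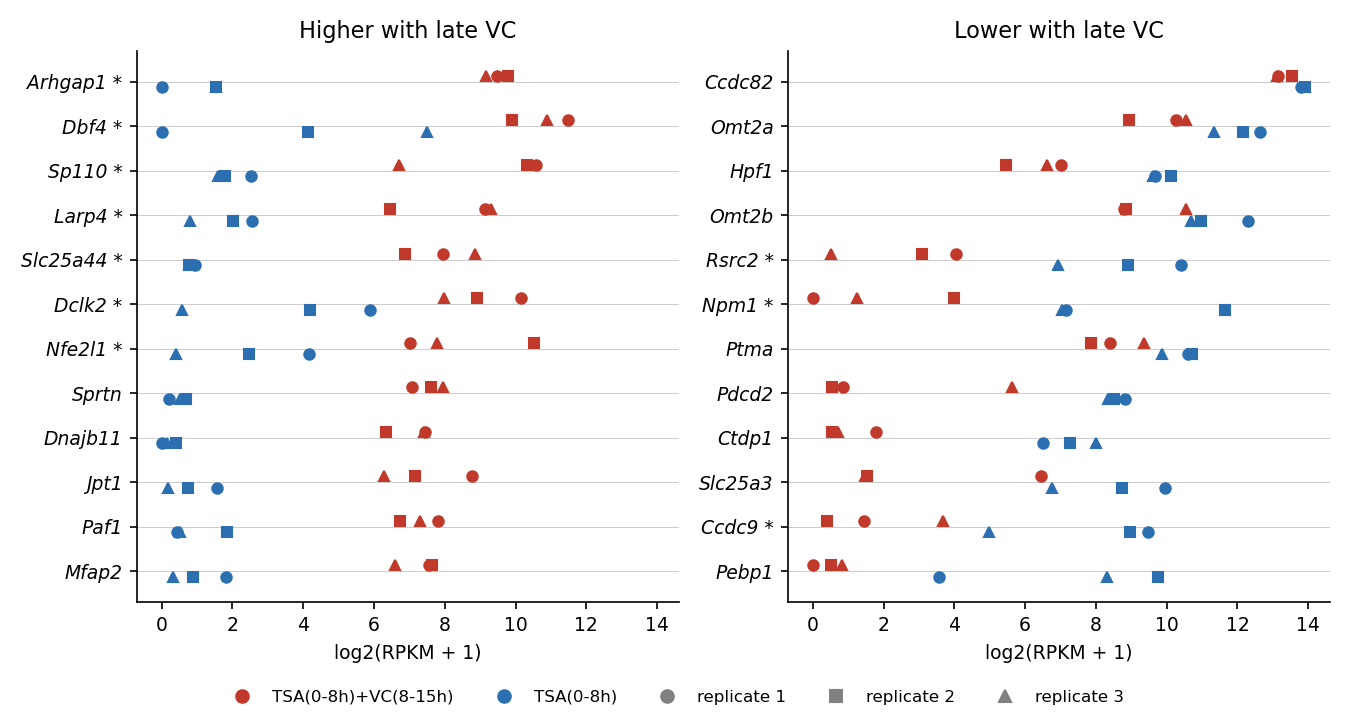
Levels as log2(RPKM+1) (horizontal axis) of the 12 transcripts named in each direction in the 3 TSA+late VC embryos (red) and the 3 TSA embryos (blue), with the marker shape giving the replicate and an asterisk at genes that no longer separated the groups when summed over all entries. Most points of the TSA embryos lie below 2 for the transcripts higher with late VC, and Ccdc82, Omt2a, Omt2b and Ptma lie near or above 8 in both groups.

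The function of the genes was examined with 39 lists. Every list is described by the number of entries tested, the number separated and the median log2 difference, beside the same for all transcripts (12.2% separated upwards, 2.27% downwards, median 0.87). The filter favours a transcript that is present in 1 group, so the counts describe the tested members only. No list member other than Arhgap1 and Omt2a passed the adjusted threshold. All 39 medians were above 0, 18 of them above that of all transcripts, whereas with median-ratio scaling 25 were below 0 and 16 above that of all transcripts (-0.11). The 14 that stayed above 0 were glycolysis, antioxidants, ascorbate transport, both dioxygenase lists, H3K9 methyltransferases, deacetylases, DNA methylation, nucleolar assembly, ribosomal proteins, translation initiation, tRNA synthetases, cytoskeleton and autophagy.

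The highest list median was that of glycolysis and pyruvate metabolism. Of its 54 entries, 12 were tested, with a median of 2.77 (1.75 with median-ratio scaling) and 4 separated upwards (33.3%). The median was 2.46 and 3.22 in pools 1 and 2 and 0.60 in pool 3, where that of all transcripts was 0.56. Aldoa, the aldolase of glycolysis, had 166, 419 and 35.6 RPKM with late VC and 3.07, 1.35 and 0.11 RPKM without (difference 5.96, adjusted p = 0.57). Pdhb, a subunit of the pyruvate dehydrogenase that feeds the citric acid cycle, had 388, 110 and 94.0 RPKM with late VC and 7.58, 11.2 and 0.80 RPKM without. The others were Pdhx, a further subunit of that enzyme, and Slc2a3, a glucose transporter that also carries oxidized ascorbate, with 28.0, 23.01 and 25.9 RPKM with late VC and 4.93, 0.10 and 0.04 RPKM without. The list was not uniform, since 4 of the 12 had a difference below 0, Gapdh (-1.89), Pgk1 (-1.53), Ldhb (-1.52) and Pdk1 (-0.54). Gapdh had 17.4, 1.04 and 4.43 RPKM with late VC and 120, 0.21 and 70.2 RPKM without. The summed level of the list was 1465, 1360 and 834 RPKM with late VC and 651, 166 and 812 RPKM without, a narrow gap in which TSA replicate 3 lay beside the lowest TSA+late VC embryo.

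The mitochondrial lists were mostly below the filter. Of 86 entries for nuclear-encoded oxidative phosphorylation 15 were tested, with a median of 0.61 and 1 separated upwards, Sdha of complex II. Of 84 entries for mitochondrial ribosomal proteins 7 were tested, with a median of 0.60 and 2 separated upwards, Mrps30 and Mrps25. Atp5b, of the ATP synthase, had 351, 66.8 and 259 RPKM with late VC and 13.03, 100 and 6.11 RPKM without, overlapping in 1 embryo of each group.

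The machinery that makes ribosomes and proteins was among the better detected. Of 101 entries for nucleolar ribosome assembly, 77 were tested, with a median of 1.60 (0.65 with median-ratio scaling), 13 separated upwards (16.9%) and 2 downwards (2.6%). These genes reached 1 RPKM in 68, 75 and 74 entries with late VC and in 56, 48 and 46 without. Nob1, the nuclease that trims the end of 18S rRNA, had 211, 69.4 and 152 RPKM with late VC and 12.5, 0.54 and 0.16 RPKM without (difference 5.51, adjusted p = 0.57). Those separated downwards were the short Npm1 entry and Taf1d, a factor of RNA polymerase I, with 55.6, 52.8 and 18.3 RPKM with late VC and 90.6, 383 and 185 RPKM without.

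Of 94 entries for cytoplasmic ribosomal proteins, 59 were tested, with a median of 1.30, 6 separated upwards and 2 downwards. Rplp1, of the ribosomal stalk, had 583, 92.7 and 322 RPKM with late VC and 2.12, 24.9 and 55.8 RPKM without. Rps15 had 199, 314 and 155 RPKM with late VC and 12.1, 61.1 and 0.16 RPKM without, and Rpl22 and Rpl23 were those separated downwards. Their summed level did not separate the groups, with 6472, 5411 and 5216 RPKM with late VC and 14960, 3206 and 5957 RPKM without. Ribosomal protein genes have processed copies elsewhere in the genome, so reads of such copies may be included.

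Translation initiation factors had a median of 1.25 over 39 of 58 entries, with 6 separated upwards (15.4%) and 1 downwards, Eif5. Their summed level was 5075, 5476 and 5541 RPKM with late VC and 4024, 5065 and 3515 RPKM without, with no overlap but a small gap. Eif2b4, of the factor that reloads eIF2 with GTP, had 20.1, 10.5 and 91.8 RPKM with late VC and 0, 0.18 and 0.16 RPKM without. Aminoacyl-tRNA synthetases had a median of 1.30 over 10 of 26 entries, with Iars and Farsb separated upwards. Rars, for arginine, had 271, 79.9 and 74.8 RPKM with late VC and 0.78, 0.54 and 105 RPKM without, with overlap.

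Chromatin genes were examined because TSA and VC both act on chromatin enzymes. The lists that hold these enzymes had medians above that of all transcripts, also with median-ratio scaling, but not in every pool. The deacetylase list was at 0.32 in pool 3 (all transcripts 0.56), Jumonji demethylases at 0.49 in pool 1 (0.64) and other dioxygenases at 0.48 in pool 2 (0.95). Histone deacetylases and their complexes had a median of 1.66 (0.82 with median-ratio scaling) over 26 of 52 entries, with 4 separated upwards (15.4%) and 1 downwards (3.85%), and reached 1 RPKM in 25, 26 and 26 entries with late VC and in 19 in each TSA embryo. The deacetylase complex subunit Sap30l was separated downwards, with 0.59, 1.83 and 0.26 RPKM with late VC and 11.8, 153 and 177 RPKM without. Mbd3 and entries of Sin3a (255 bases), Gatad2a (459 bases) and Ncor1 (1137 bases), all subunits of deacetylase complexes, were separated upwards. The longest entries of Sin3a, Gatad2a and Ncor1 overlapped. Most tested members of this list are complex subunits and not deacetylases. The deacetylases tested, Hdac1 (difference -1.59), Hdac2 (-3.23) and Hdac6 (0.08), lay below the median of all transcripts, and their groups overlapped. Hdac2, which TSA inhibits directly, had 1.26, 2.18 and 0.12 RPKM with late VC and 0, 44.6 and 145 RPKM without. Rbbp7, a histone-binding subunit of such complexes, had 233, 196 and 95.7 RPKM with late VC and 2.33, 108 and 1.01 RPKM without.

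Jumonji demethylases, the VC-dependent histone enzymes, had a median of 1.60 (0.39 with median-ratio scaling) over 18 of 34 entries, and 1 was separated upwards (5.56%), below the share of all transcripts. This was Kdm5a, an H3K4 demethylase, with 14.1, 19.7 and 43.1 RPKM with late VC and 2.26, 0.05 and 0.22 RPKM without. Kdm3b, an H3K9 demethylase named in the study, had 12.9, 39.3 and 7.80 RPKM with late VC and 15.4, 0.05 and 0.02 RPKM without, with overlapping groups (difference 2.71, SE 1.97, limma adjusted p = 0.736). The long entry of Kdm3a, which acts on the same mark, had 16.6, 28.8 and 39.7 RPKM with late VC and 1.43, 27.6 and 9.69 RPKM without. Other ascorbate-dependent dioxygenases had a median of 1.36 over 10 of 42 entries with none separated, among them Tet3, which oxidizes methylcytosine in the zygote, with 18.4, 82.5 and 42.0 RPKM with late VC and 2.79, 40.5 and 52.7 RPKM without. Ascorbate transport and recycling had 4 of 20 entries tested with a median of 1.10, and Slc2a3 was the 1 separated.

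Lists that hold the writers of the marks beside other genes had similar medians. H3K9 methyltransferases, HP1 proteins and their partners had a median of 1.87 (0.90 with median-ratio scaling, 0.34 in pool 1) over 17 of 30 entries. Tasor, Suv39h2, Mphosph8 and the 8631-base entry of Prdm2 were separated upwards (23.5%), and the 7308-base entry of Prdm2 overlapped. Tasor and Mphosph8 are not methyltransferases. Suv39h2, the H3K9 methyltransferase of pericentric heterochromatin in germ cells and embryos, had 52.7, 44.1 and 48.3 RPKM with late VC and 33.9, 0.48 and 0.93 RPKM without. Morc2a, which works with the HUSH silencing complex, had 123, 98.7 and 93.8 RPKM with late VC and 5.66, 0.76 and 157 RPKM without, so TSA replicate 3 was the highest of all. DNA methylation genes had a median of 1.80 over 14 of 38 entries, with Apex1, Mbd3 and Uhrf1 separated upwards (21.4%). The list also holds genes that remove or read methylation. Its tested methyltransferases, Dnmt1 (difference -0.92) and Dnmt3a (2.14), overlapped. Apex1, which cuts abasic sites during base excision repair, had 90.0, 69.2 and 88.4 RPKM with late VC and 2.03, 0.78 and 0.20 RPKM without (difference 5.48, SE 1.90, adjusted p = 0.57). Its 3 TSA+late VC embryos were close together, and the TSA embryos were at the limit of the filter. Zfp57, which keeps methylation at imprinted genes, was lower on average in its 264-base entry, with 313, 2.44 and 1.85 RPKM with late VC and 33.9, 722 and 755 RPKM without, and overlapped.

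Further chromatin lists lay at or below the median of all transcripts. Histone acetyltransferases and bromodomain genes had a median of 0.57 over 31 of 63 entries, with Brd9, Brd7 and Brpf3 separated upwards and Brpf1 and Kat6a downwards. Polycomb genes had a median of 0.71 over 24 of 53, with Pcgf5 and Pcgf6 separated upwards. Bmi1, of the same complex family, had 346, 449 and 514 RPKM with late VC and 1236, 1786 and 340 RPKM without, with overlap. Chromatin remodelling ATPases and their partners had a median of 0.72 over 32 of 60, with Dpf3, Pbrm1, Baz1a and Arid1b separated upwards and Baz2b and Smarcad1 downwards. In that list Ruvbl1, an ATPase of the INO80 complex, had 1.39, 2.72 and 115 RPKM with late VC and 855, 250 and 66.3 RPKM without, with overlap. Core and linker histone genes had a median of 0.13 over 17 of 82, with H3f3a, a gene for the replacement histone H3.3, the 1 separated upwards. It had 208, 62.8 and 152 RPKM with late VC and 3.69, 24.03 and 1.98 RPKM without. With median-ratio scaling the medians of these lists were all below 0.

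Histone chaperones had a median of 0.20 over 25 of 37 entries, and -1.09 with median-ratio scaling. Hira, which deposits H3.3 and is needed to reprogramme transferred nuclei, had 33.6, 27.4 and 88.6 RPKM with late VC and 0, 0.23 and 3.53 RPKM without (difference 4.65, adjusted p = 0.57). Nap1l4 and Chaf1a were also separated upwards, and Ptma and the short Npm1 entry downwards. Npm2, the oocyte nucleoplasmin that decondenses sperm chromatin, varied within the groups, with 0.23, 0.26 and 43.3 RPKM with late VC and 656, 239 and 0.09 RPKM without.

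Stored maternal messages had the lowest median of the lists as reported. Histone chaperones and core and linker histones were lower with median-ratio scaling, and apoptosis genes, survival genes and mitochondrial ribosomal proteins with quantile normalization. Of 36 entries for oocyte-specific genes 22 were tested, with a median of 0.00 (-0.95 with median-ratio scaling), none separated upwards and 3 downwards (13.6%). These were Omt2a, Omt2b and Oog3, a leucine-rich oocyte gene with 256, 410 and 132 RPKM with late VC and 639, 485 and 495 RPKM without. The summed level of the list was 5138, 3138 and 4822 RPKM with late VC and 18890, 10010 and 6361 RPKM without, without overlap, and it made up 0.496% of reads on average with late VC and 1.03% without. The median was below that of all transcripts in each pool (-0.07, -0.12 and -0.04, compared with 0.64, 0.95 and 0.56). Yet 23, 20 and 20 of these entries were detected with late VC and 18, 18 and 15 without. The lower sum thus came from a few abundant messages, mainly Omt2a and Omt2b. In the TSA embryos the highest values were those of Omt2a (6390, 4601 and 2600 RPKM) and Omt2b (5030, 2008 and 1662 RPKM). The sum is therefore no result apart from these neighbours, which were named for their small p and may share reads. Genes of mRNA decay and maternal translation control had a median of 0.78 over 45 of 91 entries, with 7 separated upwards (15.6%), among them Msi2 and Xrn1, the cytoplasmic 5′ to 3′ exonuclease, with 11.7, 1.08 and 15.4 RPKM with late VC and 0.06, 0.05 and 0.03 RPKM without. The subcortical maternal complex, needed for the first cleavages, had a median of 0.48 over 6 of 8 entries, with none separated.

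Genes switched on at the two-cell stage showed no common direction. Of 34 entries 25 were tested, with a median of 0.86, next to that of all transcripts, and the median was -0.43, 2.17 and 0.25 in pools 1, 2 and 3. In all, 4 were separated upwards (16%) and 1 downwards (4%). Tcstv1, a marker of the two-cell-like state, had 229, 202 and 27.1 RPKM with late VC and 2.35, 19.1 and 0.40 RPKM without. Tdpoz1, Usp17lb and the short Sp110 entry were also separated upwards. Zfp352, a zinc finger gene of the two-cell embryo, was separated downwards, with 39.9, 43.8 and 95.5 RPKM with late VC and 135, 155 and 225 RPKM without. Several of these genes belong to families of near-identical copies, and their counts are uncertain.

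Pluripotency factors had a median of 0.27 over 11 of 30 entries. Lin28a, the RNA-binding protein that blocks let-7 maturation, was the 1 separated upwards, with 237, 130 and 190 RPKM with late VC and 37.1, 1.80 and 6.65 RPKM without. Klf4 had 0, 0.63 and 8.96 RPKM with late VC and 84.2, 1.51 and 44.8 RPKM without.

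Transcription, splicing and nuclear transport lists had medians of 0.59 to 0.96. RNA polymerase II and Mediator had a median of 0.64 over 35 of 68 entries, with Paf1, Leo1, Med14 and Supt5 separated upwards and Cdk8 downwards. The median of this list was -0.66 with median-ratio scaling (all transcripts -0.11) and -0.25, 0.15 and 1.44 in pools 1, 2 and 3. Paf1 and Leo1 are subunits of 1 complex, and Leo1 had 11.3, 36.2 and 67.1 RPKM with late VC and 0.15, 0 and 1.13 RPKM without. General transcription factors had a median of 0.59 over 28 of 51, with Gtf2e1, Gtf3c1 and Taf3 separated upwards. Gtf2e1, of TFIIE, had 22.96, 32.4 and 19.5 RPKM with late VC and 0.11, 0.08 and 0.03 RPKM without. Splicing factors had a median of 0.96 over 97 of 162, with 8 separated upwards (8.25%) and 1 downwards, Rbm5. Nuclear transport had a median of 0.95 over 51 of 77 with 5 separated upwards, among them the importin Ipo4, with 98.5, 99.1 and 41.8 RPKM with late VC and 0.55, 0.35 and 0.12 RPKM without. Cse1l, which returns importin alpha to the cytoplasm, had 5.30, 82.0 and 5.40 RPKM with late VC and 0.55, 0.18 and 0.02 RPKM without.

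Replication and cell division genes had medians between 0.64 and 0.82. DNA replication had 37 of 76 entries tested, with the short Dbf4 entry, Mcm10, Cdt1 and Wdhd1 separated upwards (10.8%). Mcm10, which helps to start unwinding at origins, had 46.7, 39.8 and 81.9 RPKM with late VC and 0.09, 0.18 and 0.19 RPKM without. Cell cycle regulators had 58 of 110 entries tested, with 6 separated upwards and E2f4 downwards. Plk1, the mitotic kinase, had 76.5, 239 and 202 RPKM with late VC and 56.6, 5.52 and 0.73 RPKM without. Ube2s, the ubiquitin-conjugating enzyme of the anaphase-promoting complex, had 119, 172 and 327 RPKM with late VC and 0.67, 54.1 and 6.37 RPKM without. The DNA damage response had 35 of 90 entries tested, a median of 0.65, with Tipin, Trp53bp1 and Rev1 separated upwards and Wrn downwards. With median-ratio scaling these medians lay between -0.22 and -0.13.

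Stress and survival genes were few. Of 79 entries for apoptosis 15 were tested, 8 with a difference above 0 and 7 below. Their median was 0.29, but -0.36 with median-ratio scaling and -0.75 with quantile normalization. Casp2 and Apaf1 were separated upwards, neither with an unadjusted limma p under 0.05. Casp2, an initiator caspase active in oocytes, had 71.3, 22.6 and 40.7 RPKM with late VC and 0.57, 0.78 and 12.5 RPKM without. Bnip3l, a mitophagy receptor, had 0.28, 11.01 and 5.26 RPKM with late VC and 10.7, 257 and 134 RPKM without, overlapping by a small margin. Survival genes had a median of 0.52 over 17 of 32, with Akt2 and Birc3 separated upwards.

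Antioxidant enzymes, examined because VC is itself an antioxidant, had a median of 1.15 (0.33 with median-ratio scaling) over 14 of 57 entries, with 4 separated upwards (28.6%) and 1 downwards (7.14%). Gpx1, which reduces peroxides with glutathione, had 57.3, 140 and 72.6 RPKM with late VC and 0, 0.61 and 7.17 RPKM without. Gclc, which makes the precursor of glutathione, Glrx5 and Sesn2 were also separated upwards. Prdx2, a peroxiredoxin and the most abundant of those separated, went the other way, with 93.1, 268 and 212 RPKM with late VC and 951, 1222 and 326 RPKM without (difference -2.05, SE 0.66, adjusted p = 0.57). Peroxide-removing enzymes were thus found in both directions.

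Of the remaining lists, the actin and tubulin cytoskeleton had a median of 1.15 over 64 of 110 entries, with 9 separated upwards (14.1%), among them the short Arhgap1 entry and Kif11, the motor that parts the spindle poles, with 25.3, 29.9 and 140 RPKM with late VC and 1.37, 0.11 and 0.26 RPKM without. Its summed level was 7840, 5000 and 7527 RPKM with late VC and 2961, 4654 and 3388 RPKM without, with no overlap. Heat shock and chaperonin genes had a median of 0.77 over 45 of 76, with 5 separated upwards, among them Stip1, and Dnajb12 downwards. Proteasome subunits had a median of 0.93 over 22 of 46, with Psmd5, Psmb7 and Psmc3 separated upwards. Ubiquitin ligase F-box and cullin genes had a median of 0.46 over 35 of 92, with Fbxl20, Fbxo34, Cul4a and Fbxl14 separated upwards. Autophagy and lysosome genes had a median of 1.24 over 29 of 73, with Lamp2 among those separated upwards and Atg14 separated downwards.

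**Figure D5:**
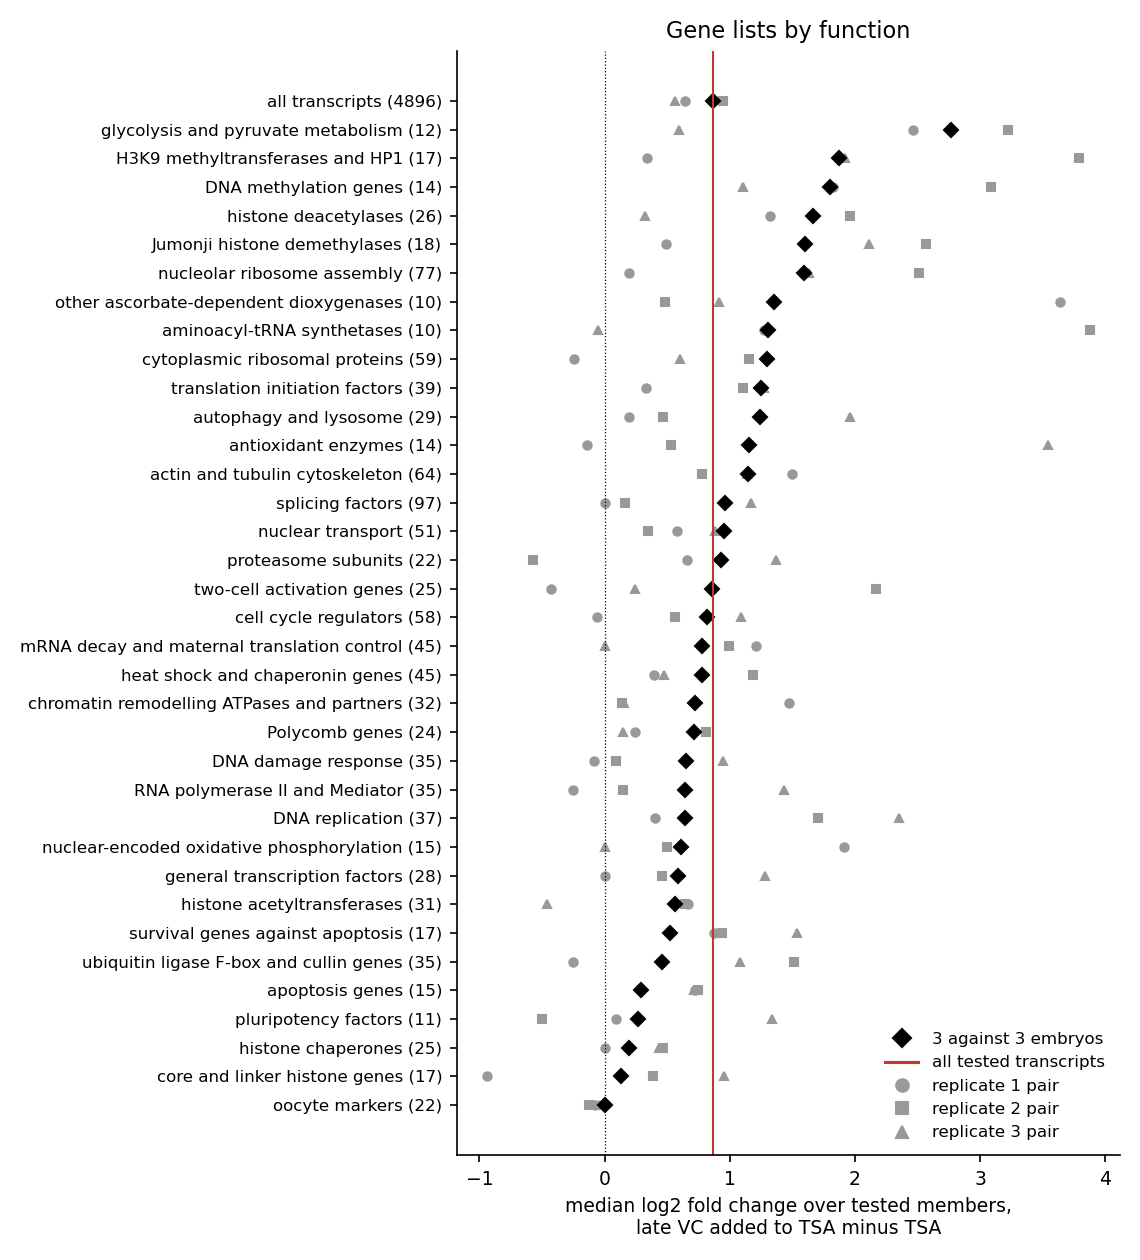
Median log2 difference between TSA+late VC and TSA embryos (horizontal axis) over the tested members of each list with at least 10 tested (number in brackets), with black diamonds for 3 against 3 embryos, grey markers for each same-numbered pair and a red line at the median of all tested transcripts (0.87). Glycolysis and pyruvate metabolism lies at 2.77 and oocyte markers at 0.00, pairs differ widely in most lists, and with median-ratio scaling 25 of all 39 medians fall below 0.

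Position in the genome was described for the 4361 tested transcripts whose symbol has 1 chromosome in the mm9 annotation. The median difference was 0.90 over 4231 autosomal transcripts, with a range of 0.51 to 1.19 over the 19 autosomes, and 0.44 over 130 transcripts of the X chromosome, the lowest of the 20. On the X chromosome 11 were separated upwards (8.46%) and 2 downwards (1.54%). The difference between X and autosomes was not tested.

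The separated transcripts were finally followed into embryos with late VC but no TSA, which share no sample with the comparison. The 595 transcripts separated upwards had a median difference between the VC(8-15h) and control embryos of 0.15, the 111 separated downwards one of -0.16, and all tested transcripts one of 0.02. The VC(8-15h) embryos disagreed with each other. Relative to the controls, VC(8-15h) replicate 1 had medians of 0.92, 0.73 and 0.73 for the 3 sets and replicate 2 had -0.78, -1.54 and -0.95, so with 2 embryos the sets could not be set apart from the spread between them. The effect of late VC in the presence and absence of TSA was compared in 1 limma fit over 11 embryos and 7124 transcripts. None differed at an adjusted p under 0.05, with 313 (4.39%) at an unadjusted p under 0.05 and 53 (0.744%) under 0.01.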

How the data were processed

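Total RNA of each SCNT embryo was amplified and read single-end. According to the study's methods, the authors removed adapters, aligned reads to mm9 (TopHat2 in the submitters' processing notes) and deposited RPKM values, scaled to total counts and transcript length, for 25650 entries per embryo. Strand use and the handling of reads with several positions are not given in the sources used here. Groups were taken from the sample titles. Reads were recovered from the RPKM steps (99.99% of entries above 0 gave whole reads, relative tolerance 1e-09), and 3 reads, taken as the detection floor for counting error only, equal 0.244 to 0.993 RPKM for a 1-kb transcript in the 6 embryos.

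Transcripts at 1 RPKM or more in at least 3 of the 6 embryos were tested with limma 3.58.1 (R 4.3.3, eBayes with a trend) on log2(RPKM+1), which understates changes of low transcripts, with Benjamini-Hochberg adjustment at 0.05. The fit was tested on simulated data. The genes to name were, in each direction, the 12 separated transcripts with the smallest p (1 per symbol), the 2 members of each list with the smallest p, the cumulus and oocyte markers as lists, and Kdm3b. Values of a few list members under this rule are omitted, and other genes were named after their values were seen. The members and lists were chosen with earlier results of these data known. The study states that the TSA+late VC embryos came from independent nuclear transfers. For the TSA embryos the sources used here do not state it. The p-values measure the spread between 3 embryos. Alternatives were a pseudocount of 0.1, other filters, scalings and fits, limma-voom on recovered reads, each embryo left out in turn and, chosen after seeing the data, reads and lengths summed per gene, entries of at least 300 bases and each pool left out. Python 3.11.15, numpy 2.4.6 and pandas 2.3.3 were used.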

Additional observations from a re-analysis of the deposited data

How the results depend on the processing

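Against the reported 1 transcript higher and 2 lower at a limma adjusted p under 0.05, the counts were 0 and 1 with a pseudocount of 0.1, 0 and 0 without a filter, with a minimum of 5 RPKM, with 1 RPKM required in all embryos of either group, with all 14 embryos in a single fit, with no trend and with entries summed per gene, 0 and 1 with reads and lengths summed per gene, and 0 and 2 with entries of at least 300 bases. They were 5 and 3 with quantile normalization, 0 and 5 with median-ratio scaling, 1 and 4 with limma-voom, 9 and 8 without pool 1, 10 and 5 without pool 2 and 9 and 8 without pool 3. With the replicate number, shared with the pool, as a block they were 8 and 6. Deviations of same-numbered embryos from their group means had correlations of 0.046, 0.010 and 0.029 over the tested transcripts. Leaving out 1 embryo gave 1 to 6 higher and 0 to 7 lower.

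Against the 41 transcripts higher at an unadjusted p under 0.01 there were 93 without a filter, 86 with a minimum of 5 RPKM, 262 with 1 RPKM in all embryos of either group, 10 with median-ratio scaling, 76 with all 14 embryos, 139 with no trend, 105 with limma-voom, 26 without pool 1, 19 without pool 3 and 15 to 71 without 1 embryo. Against the 18 lower there were 31, 61 and 28 with either-group filtering, with median-ratio scaling and without pool 3. The causes were not tested. The difference in transcripts at 1 RPKM or more per embryo stayed in favour of late VC, at 915 to 1706, while that in entries with any read was 708 with overlapping groups. No transcript passed the adjusted limma test of late VC with TSA against late VC without TSA in the alternatives run for it. The difference of Nr5a2 reversed with quantile normalization (-0.49), with median-ratio scaling (-0.042) and in 1 of the fits without 1 embryo (range -0.35 to 2.27, the lowest without TSA+late VC replicate 3). The spread between 3 amplified single embryos, and 3021540 reads in the shallowest, limit what could be called.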
